A study of Mus musculus with 4 samples.

Results

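Ribosome biogenesis is the making of ribosomal subunits in the nucleolus: RNA polymerase I transcribes the long precursor of ribosomal RNA, small nucleolar ribonucleoproteins (snoRNPs) modify it, and processing factors cut, fold and export it with ribosomal proteins. The transcription factor Myc, which binds DNA as a dimer with Max at the E-box CACGTG, is known to raise the transcription of many of these factors. In the intestine, Myc and ribosome production are known to be highest in the dividing cells of the crypt. The genes described here are Myc and 34 ribosome biogenesis factors. They were taken by symbol from a list of 35 names that was chosen with earlier results of these data known. All 35 were on the array and lay well above background on each of the 4 arrays, out of 19325 genes tested.

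Whole colon of C57BL/6 mice was measured on 4 one-colour arrays, 1 array per sample. In the Junb fl/fl Cd4-Cre group (2 arrays), floxed Junb is deleted by a Cre recombinase that the Cd4 promoter drives in the T cell lineage, and the Junb fl/fl control group (2 arrays) carries the same floxed alleles with no Cre in its label. Junb in cells outside the T cell lineage is therefore present in both groups. All mice of both groups drank dextran sulphate sodium (DSS), an agent that damages the lining of the gut, and the tissue was taken on day 5. The age of the mice was not given in the sources used here, and the comparison asks how the colon transcriptome differs when colitis is, per the series text, more severe in the mutants.

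No spot was saturated. Each array had 27939 to 29091 of its 56605 probes well above background, and the 2 mutant arrays correlated with a Pearson's r of 0.982 over 19325 genes, against 0.976 for the 2 controls. Across genotypes, arrays of the same replicate number correlated at 0.980 (replicate 1) and 0.984 (replicate 2), so arrays were as alike by number as by genotype. Junb itself lay at 4.44 and 4.47 in the mutants, against 4.23 and 4.39 in the controls. T cells are a small part of the colon, so this level is no check of the deletion. Xist and the Y-linked Eif2s3y split the arrays by replicate number. Xist had -0.77 and -6.43 on mutant arrays 1 and 2, against -0.55 and -6.13 on control arrays 1 and 2. Eif2s3y had -6.20 and -0.11 on mutant arrays 1 and 2, against -6.08 and 0.19 on control arrays 1 and 2. Replicate 1 of each genotype was thus female and replicate 2 male, and differences within these 2 pairs are given beside the pooled ones. All values are log2 signals relative to the 75th percentile of the array, differences are mutant minus control with limma's moderated standard error (SE), and whole tissue cannot tell more cells of a type from more RNA per cell. Markers of epithelium (10 of 10 passing, summed linear signal 1044 and 1094 in the mutants, 988 and 984 in the controls) and of smooth muscle were present, as whole colon should have them. Smooth muscle markers (10 of 10) summed to 382 and 376 in the mutants and to 504 and 556 in the controls, and T cell markers (9 of 10) to 7.75 and 8.47 in the mutants and to 10.1 and 9.32 in the controls. Neither mutant array measured Cd8a, a marker of cytotoxic T cells, well above background. The part these shifts have in the results below was not tested.

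Probe sequences show what was measured. Myc's level rests on the first of its 2 probes, the second being a dimmer probe of the same transcript. The third is a probe of Npm1 that is spotted 10 times on the array and so measures the error within an array. The Myc probes lie on mm9 at chr15:61821417-61821476 and chr15:61820925-61820984, both on the + strand. The Npm1 probe matches chr11:33052849-33054041 on the - strand, 1193 bases of genome for a probe of 60 bases, so it reads spliced RNA across an intron.
Myc, brighter probe: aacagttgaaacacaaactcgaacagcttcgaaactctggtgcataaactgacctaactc
Myc, dimmer probe: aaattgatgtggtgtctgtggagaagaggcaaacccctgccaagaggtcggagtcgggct
Npm1, repeated probe: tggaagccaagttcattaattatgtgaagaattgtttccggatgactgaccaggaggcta

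Across the list, 34 of 35 genes had a higher mean in the mutants and 1, Nop58, a lower one, with a median log2 difference of 0.27, against 0.02 over all genes and 53.4% of all genes with a higher mean. No member passed a Benjamini-Hochberg adjusted p of 0.05 in limma, where 0% of all genes did. The smallest adjusted p of a member was 0.428, for Noc4l. With the replicate number as a block, 0.238% of all genes passed and 0 members did. At an unadjusted p under 0.05, 4 members were higher (Noc4l, Nhp2, Gar1 and Fbl), beside 5.31% of all genes, and 0 were lower, beside 3.98%. With the replicate block the same 4 members were higher at that threshold, beside 10.1% of all genes, a share near that of the members (11.4%), and 0 were lower, beside 7.44%. Both mutant arrays lay above both controls for 16 members, beside 25.7% of all genes, and below both controls for 0, beside 17.6%.

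The difference was uneven between the 2 mutants. Mutant replicate 1 was the highest of the 4 arrays for 33 members, beside 22.9% of all genes, and mutant replicate 2 was the highest for 2 members, Polr1c and Nop16, beside 28%. Set against the mean of the controls, the median over the list was 0.41 for mutant replicate 1 and 0.068 for mutant replicate 2. Control replicate 1 was the lowest of the 4 arrays for 26 members, beside 33% of all genes. For 13 members (37.1%) mutant replicate 2 lay inside the range of the 2 controls, a share near the 31.6% of all genes. Without mutant replicate 1 the median difference was 0.068, beside 0.043 over all genes. Of the members 23 were then higher, beside 56.8% of all genes, and 12 lower. Without control replicate 1 the median was 0.19, beside 0.038 over all genes, with 34 higher, beside 56.4%. Without mutant replicate 2 the median was 0.41, beside 0.0035 over all genes, with 35 higher, beside 50.6%. Without control replicate 2 it was 0.35, beside 0.026 over all genes, with 32 higher, beside 53.1%.

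**Figure D1:**
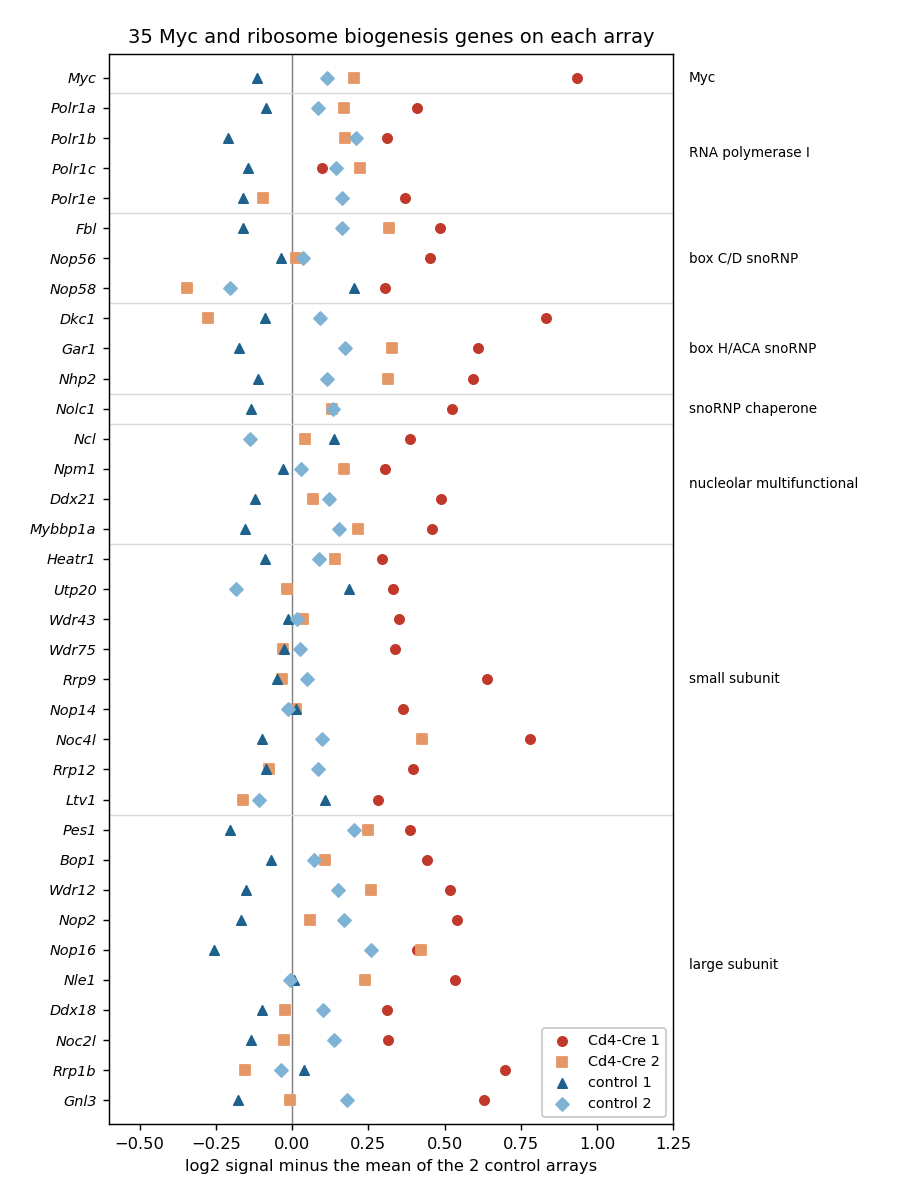
Log2 signal of each of the 35 genes on each array, as the difference from the mean of the 2 control arrays (x axis, log2), with genes grouped by role down the page. Points of mutant replicate 1 stand to the right of the others for 33 genes, beside 22.9% of all genes. Mutant replicate 2 lies inside the range of the controls for 13 (37.1%), a share near the 31.6% of all genes.

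Within the female pair (replicate 1) all 35 members were higher in the mutant, beside 48.7% of all genes, with a median difference of 0.53. Within the male pair (replicate 2), 19 of 35 were higher, beside 58.5% of all genes, with a median of 0.03. The same 19 were higher in both pairs, beside 36.3% of all genes. The animals of 1 genotype differed too: mutant replicate 2 was below mutant replicate 1 for 33 members (beside 43.9% of all genes), with a median difference of -0.35, while control replicate 2 was above control replicate 1 for 28 members (beside 54.5% of all genes), with a median of 0.20. Female and male thus stood in opposite order in the 2 genotypes for most members. With 1 array for each sex and genotype, a difference between the sexes in the effect of genotype cannot be told apart from a difference between single mice.

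**Figure D2:**
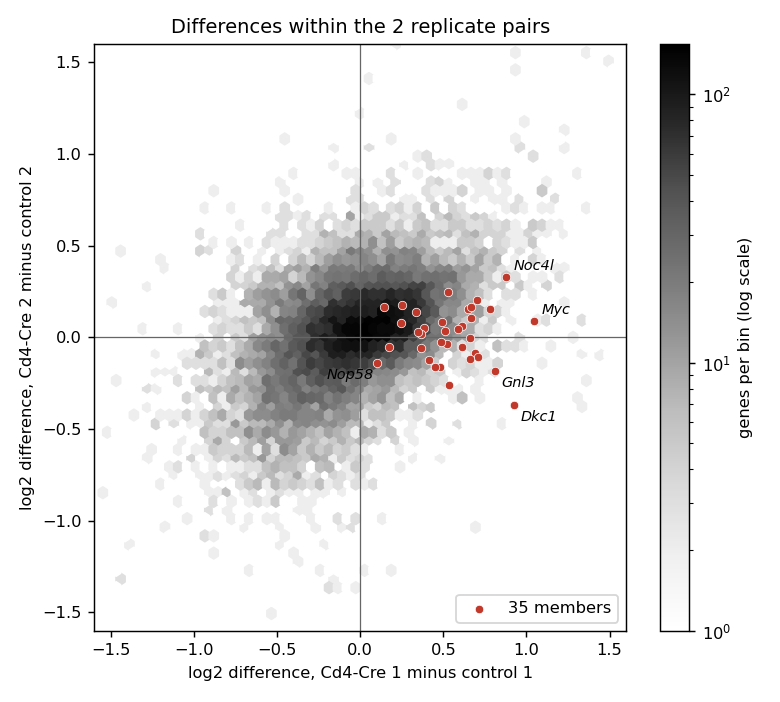
Log2 difference of each gene in the female pair (Cd4-Cre 1 minus control 1, x axis) and in the male pair (Cd4-Cre 2 minus control 2, y axis). Grey hexagons count the tested genes on a log scale (genes beyond the axes are not drawn) and red points are the 35 members, which all lie right of 0 on the x axis and on both sides of 0 on the y axis.

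On the brighter probe Myc lay at 0.80 and 0.06 in the mutants, against -0.25 and -0.02 in the controls. The groups did not overlap, but mutant replicate 2 lay 0.088 above its control partner and mutant replicate 1 lay 1.05 above its own. Myc was thereby 1.48-fold higher in the mutants (log2 difference 0.57 ± 0.27) and missed the threshold, with a limma adjusted p of 0.586. The dimmer Myc probe gave the same picture, at -2.66 and -3.40 in the mutants and -3.48 and -3.44 in the controls, a difference of 0.43. Both probes thus set mutant replicate 1 apart, and mutant replicate 2 lay within 0.1 of a control on each. Without mutant replicate 1 the difference of the brighter probe was 0.20, and without mutant replicate 2 it was 0.93.

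Myc's partners and antagonists had no common direction (Max and its relatives, 12 of 13 listed genes tested, median 0.06, 7 higher and 5 lower). Mxd3, a Max partner that opposes Myc at E-boxes and is expressed in dividing cells, was the only one past an unadjusted p of 0.05. It lay at -2.85 and -2.73 in the mutants, against -3.54 and -3.92 in the controls (0.94 ± 0.28, limma adjusted p = 0.450), with both mutants above both controls. Mycn, a paralogue of Myc, lay at -2.82 and -2.31 in the mutants, against -2.09 and -1.77 in the controls, a difference of -0.64 ± 0.27 that did not pass. Mycl differed by 0.34 ± 0.25 and Mxi1, another Max partner, by 0.18 ± 0.15. Max, the partner with which Myc binds DNA, lay at 4.26 and 4.29 in the mutants and at 4.32 and 4.17 in the controls, and was named after its values were seen.

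The 4 RNA polymerase I subunits all had a higher mean, beside 53.4% of all genes, with a median difference of 0.20. Polr1a, the largest and catalytic subunit, had 0.95 and 0.71 in the mutants, against 0.45 and 0.62 in the controls (0.29 ± 0.15), with no overlap between the groups. Polr1b, the second-largest subunit, differed by 0.24 ± 0.21, and Polr1e, a subunit that helps the enzyme initiate and elongate, by 0.14 ± 0.22. Polr1c, which RNA polymerase III shares, was 1 of the 2 members highest in mutant replicate 2, at 2.85 and 2.97 in the mutants, against 2.60 and 2.89 in the controls (0.16 ± 0.14). None of the 4 passed.

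The snoRNP proteins held 3 of the 4 genes with the smallest p. Box C/D particles methylate ribosomal RNA, and Fbl, their methyltransferase fibrillarin, had 4.62 and 4.45 in the mutants, against 3.97 and 4.29 in the controls. Its groups did not overlap and the difference was 0.40 ± 0.15 (limma adjusted p = 0.522). Nop56, a core protein of the same particle, differed by 0.23 ± 0.17. Its partner Nop58 was the exception of the whole list, at 1.55 and 0.90 in the mutants, against 1.45 and 1.04 in the controls. The groups overlapped fully, and the difference was -0.02 ± 0.26.

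Box H/ACA particles convert uridines to pseudouridine. Nhp2, a core protein, had 4.20 and 3.93 in the mutants, against 3.50 and 3.72 in the controls (0.45 ± 0.15, limma adjusted p = 0.477). Gar1, another core protein, had 3.05 and 2.77 in the mutants, against 2.27 and 2.62 in the controls (0.47 ± 0.17, limma adjusted p = 0.521). For both genes each mutant lay above each control, as for 25.7% of all genes. The difference was larger in the female pair, 0.70 for Nhp2 and 0.78 for Gar1, than in the male pair, 0.20 and 0.15. Dkc1, the pseudouridine synthase dyskerin, had -2.05 and -3.16 in the mutants, against -2.97 and -2.79 in the controls, so that mutant replicate 1 was the highest array and mutant replicate 2 the lowest. Its difference of 0.28 ± 0.41 had the widest error of the list, and its second passing probe gave -0.04. Nolc1, a chaperone of snoRNPs, differed by 0.33 ± 0.18.

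Of the abundant nucleolar proteins, Npm1 (nucleophosmin, a histone and ribosome chaperone) had 4.21 and 4.07 in the mutants, against 3.88 and 3.93 in the controls. The groups did not overlap and the difference was 0.24 ± 0.11 (limma adjusted p = 0.572). The repeated Npm1 probe had 3.56 and 3.49 in the mutants and 3.24 and 3.28 in the controls, a difference of 0.26. Its 10 spots had a standard deviation of 0.067 and 0.076 log2 units on the mutant arrays and 0.084 and 0.067 on the control arrays. The gap between the groups was therefore wider than the scatter of spots within an array, which says nothing of the spread between mice. The third Npm1 probe differed by 0.55. Mybbp1a, a nucleolar regulator of RNA polymerase I, differed by 0.34 ± 0.16, the RNA helicase gene Ddx21 by 0.28 ± 0.19, and Ncl (nucleolin) by 0.21 ± 0.17.

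Small subunit factors had a median difference of 0.19 over 9 genes, all 9 with a higher mean, beside 53.4% of all genes. Noc4l, which works with Nop14 in 18S processing and export, had the largest difference and the smallest p of the 35 genes. It lay at 2.16 and 1.80 in the mutants, against 1.28 and 1.48 in the controls, and was 1.52-fold higher (0.60 ± 0.16, limma adjusted p = 0.428). Its second probe also had both mutants on top, at 0.91 and 0.55 against 0.17 and 0.36 in the controls. Its partner Nop14 differed by 0.19 ± 0.22. Within the pairs Noc4l was higher by 0.88 (female) and 0.33 (male), the largest positive difference of any member in the male pair.

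The processome proteins that bind the precursor first, Heatr1, Wdr43 and Wdr75, differed by 0.22 ± 0.13, 0.19 ± 0.16 and 0.15 ± 0.16. Rrp9, a protein of the U3 snoRNP, had 0.12 and -0.55 in the mutants, against -0.57 and -0.47 in the controls (0.30 ± 0.25), so the difference lay in mutant replicate 1. Utp20 differed by 0.16 ± 0.19 and Rrp12, an export factor, by 0.16 ± 0.19. Ltv1, which acts late in the cytoplasm, had the smallest difference among the 34 with a higher mean, at 1.76 and 1.32 in the mutants against 1.59 and 1.38 in the controls (0.06 ± 0.19). None of these passed.

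Large subunit factors had a median difference of 0.31 over 10 genes, all 10 with a higher mean, beside 53.4% of all genes. None of the 10 was past an unadjusted p of 0.05. Pes1, Bop1 and Wdr12 form a single complex that processes the precursor of 28S and 5.8S ribosomal RNA. Pes1 had 2.91 and 2.78 in the mutants, against 2.33 and 2.73 in the controls (0.32 ± 0.17). Bop1 had 2.21 and 1.87 in the mutants, against 1.70 and 1.84 in the controls (0.27 ± 0.15). Wdr12 had 0.46 and 0.20 in the mutants, against -0.21 and 0.10 in the controls (0.39 ± 0.17). All 3 had both mutants above both controls, as did 25.7% of all genes. In each, mutant replicate 2 lay no more than 0.11 above the higher control.

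Nop16 had 0.12 and 0.13 in the mutants, against -0.55 and -0.03 in the controls (0.42 ± 0.20), the closest the 2 mutants came to each other among the 35 genes. Nle1, a late maturation factor, had -1.09 and -1.39 in the mutants, against -1.62 and -1.63 in the controls (0.39 ± 0.18), and here both controls were alike and both mutants stood above them. The ribosomal RNA methyltransferase gene Nop2 differed by 0.30 ± 0.21 and the helicase gene Ddx18 by 0.14 ± 0.17. Gnl3 (nucleostemin, a GTPase of dividing cells) had -0.58 and -1.22 in the mutants, against -1.39 and -1.03 in the controls (0.31 ± 0.27). Rrp1b differed by 0.27 ± 0.33 and Noc2l by 0.14 ± 0.17. For Gnl3, Rrp1b, Nop2, Ddx18 and Noc2l, mutant replicate 2 was below control replicate 2.

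Different probes of a gene mostly gave the same direction. The array held 75 probes of the 35 genes and 67 passed the filter, with several passing probes for 22 genes. Of the 32 passing probes besides the brightest, 28 were higher in the mutants and 4 lower, with a median difference of 0.24 and a range from -0.11 to 0.55. These probes were read on the same 4 arrays as the brightest ones, so they add no mice. The 3 genes whose passing probes disagreed in sign were Nop58, Dkc1 and Noc2l. The lowest and the next lowest values were 2 further Nop58 probes, at -0.11 and -0.08, so the near-zero difference of Nop58 did not rest on 1 probe.

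**Figure D3:**
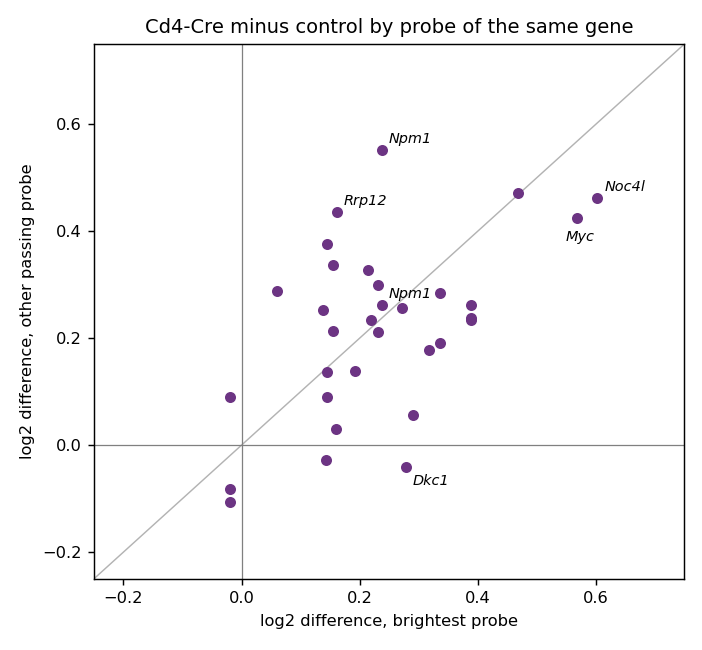
Log2 difference, mutant minus control, of the brightest probe of a gene (x axis) and of each of its other passing probes (y axis), for the 32 further probes of 22 members. The grey diagonal marks equal values, and 28 of the 32 further probes lie above 0.

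The rest of the pathway, 118 ribosome biogenesis genes that are not among the 35, had a median difference of 0.13. Of the 118, 98 were higher, beside 53.4% of all genes, and 20 lower. The 98 include Utp15, which passed the filter through the mutant arrays alone. At an unadjusted p under 0.05, 4 of 118 were higher, beside 5.31% of all genes, and 0 lower, beside 3.98%. Without mutant replicate 1 the median was 0.042, beside 0.043 over all genes, and without mutant replicate 2 it was 0.22, beside 0.0035. Among RNA polymerase I genes (10 tested, median 0.13, none past that threshold), the subunit genes Znrd1 and Polr1d differed by 0.21 ± 0.12 and 0.14 ± 0.10, the initiation factor gene Rrn3 by 0.17 ± 0.14, and Taf1b, of the promoter-binding complex, by -0.25 ± 0.14. Among snoRNP genes (9 tested, median 0.26), Ruvbl2, a helicase of snoRNP assembly, had 2.12 and 2.04 in the mutants, against 1.52 and 1.74 in the controls (0.45 ± 0.13, limma adjusted p = 0.432). Its assembly partner Pih1d1 differed by 0.29 ± 0.12, and the particle proteins Nhp2l1 and Nop10 by 0.33 ± 0.18 and 0.26 ± 0.15.

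Other small subunit factors had a median of 0.15 over 39 genes. Imp4, of the U3 particle, differed by 0.31 ± 0.12 and the methyltransferase gene Emg1 by 0.36 ± 0.14, both past the unadjusted threshold, and Rrp7a by 0.27 ± 0.12, which was not. Other large subunit factors had a median of 0.12 over 45 genes. Eif6, which keeps the large subunit from joining too early, had 4.84 and 4.81 in the mutants, against 4.47 and 4.49 in the controls. Here the 2 mice of each genotype agreed closely and the groups stood apart (0.35 ± 0.10, limma adjusted p = 0.429). Eif6 was named for its small p, which favours such agreement. Mrto4 and Rrs1, assembly factors of the large subunit, differed by 0.41 ± 0.18 and 0.42 ± 0.20, and the helicase gene Ddx27 by 0.23 ± 0.12. The RNA exosome, which trims ribosomal RNA precursors, had a median of 0.12 over 15 genes, and the 4 genes with the smallest p were Exosc8 (0.37 ± 0.18), Exosc7 (0.26 ± 0.13), Exosc3 (0.24 ± 0.13) and Exosc4 (0.16 ± 0.13), none past the threshold.

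Known Myc targets outside ribosome making (35 of 37 listed genes tested) had a median of 0.29, beside 0.02 over all genes. Of these targets 32 were higher, beside 53.4% of all genes, and 3 lower. At an unadjusted p under 0.05, 12 of the 35 were higher and 0 lower, beside 5.31% and 3.98% of all genes, and none passed the adjusted threshold. Tfrc, the transferrin receptor, had 1.50 and 1.56 in the mutants, against 0.92 and 0.98 in the controls (0.58 ± 0.11, limma adjusted p = 0.418). Ctps, which makes CTP, had 2.60 and 2.74 in the mutants, against 2.14 and 2.27 in the controls (0.47 ± 0.12, limma adjusted p = 0.418). Shmt2, a mitochondrial enzyme of serine and folate metabolism, differed by 0.61 ± 0.17 and Ranbp1, a regulator of nuclear transport, by 0.47 ± 0.14. For Tfrc and Ctps the 2 pairs gave nearly equal differences, 0.57 and 0.58 for Tfrc and 0.46 and 0.47 for Ctps. Both genes were named for their small p, which favours genes whose replicates agree. Mutant replicate 2 alone stood at a median of 0.21 above the control mean over this list, beside 0.068 over the 35 genes, and whether the lists differ was not tested.

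Of 10 proliferation markers, all 10 had a higher mean in the mutants, beside 53.4% of all genes. At an unadjusted p under 0.05, 8 were higher, beside 5.31% of all genes, but 0 passed the adjusted threshold (smallest limma adjusted p = 0.418). The summed linear signal of the 10 markers was 61.8 and 45.8 in the mutants, against 33.4 and 33.1 in the controls. Against the control mean, the median was 0.96 in mutant replicate 1 and 0.47 in mutant replicate 2, so mutant replicate 1 was highest here as well. Birc5, a mitotic inhibitor of apoptosis, differed by 0.92 ± 0.19 and Plk1, a mitotic kinase, by 0.92 ± 0.20 (limma adjusted p = 0.418 for each). The part that the share of dividing cells has in the ribosome biogenesis values was not tested.

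**Figure D4:**
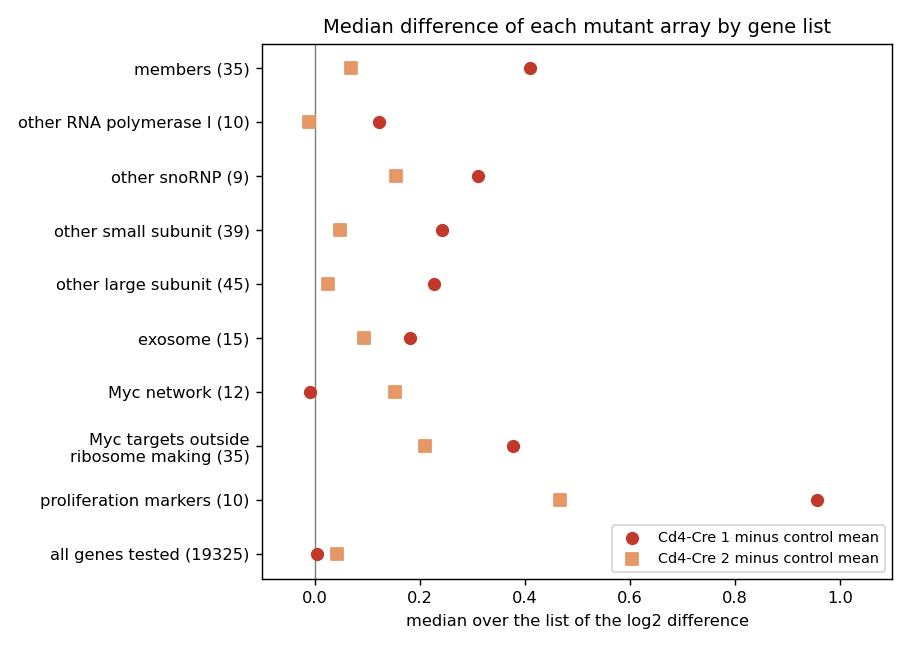
Median over each gene list of the log2 difference between 1 mutant array and the mean of the 2 controls (x axis), with the number of genes tested in brackets. Mutant replicate 1 (circles) lies at 0.41 and mutant replicate 2 (squares) at 0.068 for the 35 members, at 0.96 and 0.47 for proliferation markers, and at 0.0035 and 0.043 for all genes.

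Promoters of the 35 genes were searched for the Myc-Max motif CACGTG, which reads the same on both strands. Sequences came from RefSeq on GRCm38.p6 and run from 250 bases before to 50 after the annotated start. A window was found for 30 members, and Myc, Fbl, Npm1, Bop1 and Rrp12 had none in the table. The motif stood in the windows of 7 of 30 members, or 23.3%. The share was 11.1% of the 11348 tested genes with a window and 8.09% of all 27025 genes with a window. The 7 genes had a median difference of 0.30 and none was past an unadjusted p of 0.05, while the 23 without it had a median of 0.27. A match shows only that these letters are present. The 30 bases around each match are shown, since they are what a Myc-Max dimer could meet there, with the motif in capitals and positions counted from the start site.
Nop2, chr6:125131811-125131840, + strand, motif from position -60: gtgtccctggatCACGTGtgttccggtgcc
Pes1, chr11:3963965-3963994, + strand, motif from position 3: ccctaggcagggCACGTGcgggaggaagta
Wdr43, chr17:71616220-71616249, + strand, motif from position 18: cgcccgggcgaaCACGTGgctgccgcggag
Nle1, chr11:82908355-82908384, - strand, motif from position 24: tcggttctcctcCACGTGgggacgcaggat
Ltv1, chr10:13193092-13193121, - strand, motif from position 29: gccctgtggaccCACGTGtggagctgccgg
Utp20, chr10:88826765-88826794, - strand, motif from position 38: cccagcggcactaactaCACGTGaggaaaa
Mybbp1a, chr11:72441347-72441376, + strand, motif from position 41: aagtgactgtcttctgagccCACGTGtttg

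In 6 of the 7 genes the motif lay just after the annotated start, and in Nop2 it lay 60 bases before it. The 250 bases before the Nop2 start (chr6:125131633-125131882, + strand) show that match in its setting, with the motif in capitals.
Nop2, upstream: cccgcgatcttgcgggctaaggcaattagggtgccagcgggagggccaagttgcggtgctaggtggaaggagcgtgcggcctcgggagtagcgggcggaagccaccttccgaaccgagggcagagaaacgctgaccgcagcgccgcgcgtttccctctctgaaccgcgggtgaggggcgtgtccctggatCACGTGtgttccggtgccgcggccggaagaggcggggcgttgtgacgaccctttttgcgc
Nop2 itself had 2.77 and 2.28 in the mutants, against 2.06 and 2.39 in the controls, so the array of mutant replicate 2 lay within the range of the controls. Of the 4 members with the smallest p, Noc4l, Nhp2 and Gar1 had a window without the motif.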

How the data were processed

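The authors deposited the scanner's intensity of each spot on a linear scale, and the submitters' processing notes name Agilent Feature Extraction 11.5.1.1. The flags for spots well above background and for outliers, other values, are deposited with it per the file headers. Per the file headers all 4 arrays lay on 1 slide, with probe coordinates on mm9, and no normalization between arrays is recorded. The log2 of the processed signal minus the array's 75th percentile over 59305 non-control spots was averaged over a probe's spots without outliers (11 probes left out). Of the probes, those that 2 or more arrays measured well above background were kept, and the brightest stood for its gene (19325 genes). Genotypes were compared with limma 3.58.1 in R 4.3.3 (lmFit, eBayes with trend, two-sided, no block), adjusted over all genes by Benjamini-Hochberg, and the fit was tested on simulated data. The p-values measure the spread between 2 arrays a genotype, 1 female and 1 male, and the number of arrays limits the precision. The members and lists were chosen with earlier results of these data known. All members could be named, and from each other list up to 4 genes by smallest p (2 for markers). Alternatives changed background correction, normalization, scaling, filter, probe, trend and block, and left out each array.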

Additional observations from a re-analysis of the deposited data

Results flagged for a closer look

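For 16 members the female pair and the male pair differed in sign, each with a higher value in the mutant of the female pair and a lower one in the mutant of the male pair. With 1 array for each sex and genotype, the gap between the pairs was not tested. The gap (female pair minus male pair, log2) was 1.29 for Dkc1, from 0.92 and -0.37. It was 0.99 for Gnl3, 0.82 for Nop2, 0.79 for Polr1e, 0.77 for Rrp1b and 0.77 for Rrp9. Nolc1 and Ddx21 had gaps of 0.66 and 0.67, with male differences of -0.0042 and -0.054, close to 0. The gap was 0.64 for Rrp12, 0.61 for Noc2l, 0.56 for Polr1b, 0.53 for Ddx18 and 0.51 for Nop56. It was smallest for Wdr75 (0.42), Nop58 (0.24) and Ltv1 (0.23).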

How the results depend on the processing

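The 34 to 1 split of the members kept its size under each alternative in background correction, normalization, scaling, filter, probe, trend and block, with a median of 0.22 to 0.27. The 4 members at an unadjusted p under 0.05 became 2 after normexp background correction (Nhp2 and Noc4l, beside 5.10% of all genes), and 1 (Noc4l) after quantile normalization (4.41%) and without the variance trend (4.36%). With the mean of all passing probes of a gene they became 5, with Npm1 added (beside 4.82% of all genes). Leaving out 1 array gave 0 to 8 such members, 0 without mutant replicate 1 (beside 2.61% of all genes) or control replicate 1 (3.09%), 7 without mutant replicate 2 (3.69%) and 8 without control replicate 2 (6.30%). The median of the members ranged from 0.068 to 0.41, and Myc from 0.20 to 0.93, past the unadjusted threshold only without mutant replicate 2. These sign changes came from single arrays left out, as ranges: Polr1e -0.10 to 0.37, Nop58 -0.34 to 0.31, Dkc1 -0.28 to 0.83, Utp20 -0.029 to 0.34, Wdr75 -0.030 to 0.34, Rrp9 -0.034 to 0.64, Rrp12 -0.075 to 0.40, Ltv1 -0.16 to 0.28, Ddx18 -0.023 to 0.31, Noc2l -0.028 to 0.31, Rrp1b -0.15 to 0.70 and Gnl3 -0.0057 to 0.63. A replicate block over the shared numbers called 46 genes at the adjusted threshold, against 0 without it, none a member (smallest member adjusted p = 0.179). The labels do not say that the numbers pair animals, but Xist and Eif2s3y set replicate 1 as female and replicate 2 as male. The block therefore also holds sex, which the main fit leaves in the error. The SE of Nop58 was 0.26 without the block and 0.12 with it, and that of Gar1 was 0.17 in both. Deviations of same-numbered arrays correlated at 0.24 across genes. The cause of the other changes was not tested. Dkc1, a dim member, had the widest error (0.41), Nop14, also dim, had 0.22 and the brighter Nop58 had 0.26. The variance trend of the main fit itself ties the SE to the signal level. Without the trend the SE was 0.17 for Nop14, and for the bright Fbl it was 0.17, against 0.15 with the trend. These SEs therefore cannot show whether dimness widens the errors, which was not tested. With 2 arrays a genotype, every value is limited.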

Other observations

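Other genes of the pathway had 1 array far from the remaining 3. Utp15, a small subunit factor, had 0.15 and -3.39 in the mutants, against -3.86 and -3.80 in the controls. It was not well above background in either control and passed the filter through the 2 mutant arrays alone, so no fold or test is given. Mutant replicate 1 alone stood apart. Shq1, an assembly factor of box H/ACA particles that was named after its values were seen, had -3.02 and -3.08 in the mutants, against -0.64 and -3.13 in the controls, so that control replicate 1 alone stood apart.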
